A study of Mus musculus with 4 samples.

Results

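MIR copies, ancient short interspersed elements of the mouse genome, were followed in embryonic fibroblasts that carried Stella, Oct4 and Nanos2. They were taken as the rows of the deposited repeat table whose repeat name starts with MIR, which gave 1400 of 36284 repeat copies and 4 of 1040 names. MIRb had 488 copies, MIR 400, MIRc 295 and MIR3 217. The cells were BALB/c mouse embryonic fibroblasts (MEFs), a mixed primary culture of connective tissue cells. In the GFP control group (2 libraries) they had been infected with a lentivirus for green fluorescent protein, and in the SON group (2 libraries) with a lentivirus for Stella, Oct4 and Nanos2, encoded by Dppa3, Pou5f1 and Nanos2, which are germ line or early embryo proteins. Both groups were infected at passage 2, kept under 2 µg/ml puromycin for 4 days from 72 h onwards, and grown for a further 21 days in drug-free medium. The promoter of the viruses and the origin of the 2 libraries of a group, from separate cultures or not, are not stated in the labels, so the spread between libraries may be technical.

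MIR stands for mammalian-wide interspersed repeat. A full element has a head derived from a tRNA, with the internal promoter boxes that RNA polymerase III reads, a conserved core, and a tail that resembles the end of L2, an old LINE whose enzymes are thought to have copied it. MIR stopped spreading early in mammalian evolution, so its copies are worn, often truncated and shared between distant mammals, and in poly(A) RNA they are known mostly as short stretches inside longer transcripts. The repeat table gives each copy a name and a running number, such as MIRc_15412, without coordinates, length or sequence. Genome positions, host genes and base sequences of the copies were therefore not analysed here, and levels of different copies are not per length.

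The libraries held 850223 and 1119717 repeat reads in GFP control a and b, and 565399 and 469737 in SON a and b, the letters being those of the repeat table. Of these, MIR copies took 34474, 43726, 17406 and 17512. In the gene table the delivered genes Dppa3, Pou5f1 and Nanos2 had 0 or 1 read in each GFP control library and between 201 and 329 reads in each SON library. The 8 fibroblast markers summed to between 428890 and 772968 normalized counts in the GFP control and between 386746 and 451699 in SON. Markers of macrophages summed to between 892 and 955 in the GFP control and between 297 and 820 in SON, those of epithelium to between 165 and 288 and between 273 and 436, and those of endothelium to between 76.8 and 118 and between 202.7 and 203. Single markers within a list differed. Dcn, Col3a1, Col1a2, Col1a1 and Pdgfrb had log2 differences (SON minus GFP control) between -2.59 and -0.67. Fn1, Thy1 and Vim had values between 0.28 and 0.48. Means in the GFP control and SON were 105 and 246 for Krt19, and 103 and 92.6 for Krt18. They were 57.4 and 139 for Kdr, 18.2 and 40.8 for Tek, and 17.0 and 16.5 for Pecam1. Epcam, Cdh1, Krt8 and Cdh5 had few reads. The part of the markers in the repeat values was not tested.

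Summed over their copies, the 4 MIR names differed from the GFP control by log2 values between -0.27 and -0.08, and none passed the test across all repeat names. Values are normalized read counts, that is reads divided by 1 size factor per library. MIRb, the name with the most reads, summed to 9697 and 9250 in GFP control a and b and to 8253 and 8915 in SON a and b. Both SON sums were below both GFP control sums. The log2 difference, SON minus GFP control, was -0.14 ± 0.12 (SE, n = 2 per group, limma adjusted p = 0.680).

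The 400 copies of the name MIR itself summed to 6737 and 6134 in the GFP control, against 5752 and 6427 in SON. The groups overlapped, with a log2 difference of -0.08 ± 0.13 (limma adjusted p = 0.831) that turned to 0.051 with TMM factors. MIR3 summed to 5212 and 4634 in the GFP control, against 4641 and 4514 in SON, a log2 difference of -0.10 ± 0.13 (limma adjusted p = 0.782) that turned to 0.029 with TMM factors. These groups overlapped as well, since SON a lay just above GFP control b.

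MIRc had the largest difference among the 4 names. It summed to 7194 and 6000 in the GFP control, against 5007 and 5893 in SON, so that the groups did not overlap. The log2 difference was -0.27 ± 0.14 (95% interval -0.59 to 0.04, limma adjusted p = 0.496). A single copy, MIRc_15412, held 15.3% of the MIRc reads, and without the copy with the most reads the MIRc difference was -0.09 (limma adjusted p = 0.874). Over all 943 names tested limma called 0.848%, and the median log2 difference of all names was -0.12, which moved to 0.01 with TMM factors. With TMM factors MIRb moved from -0.14 to -0.011 and MIRc from -0.27 to -0.14. The MIRc difference was -0.14 without GFP control a, -0.16 without SON a, -0.41 without GFP control b and -0.39 without SON b. That of MIRb was -0.087 without SON a, that of MIR -0.013 without GFP control a and -0.00025 without SON a, and that of MIR3 -0.018 without GFP control a.

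**Figure D1:**
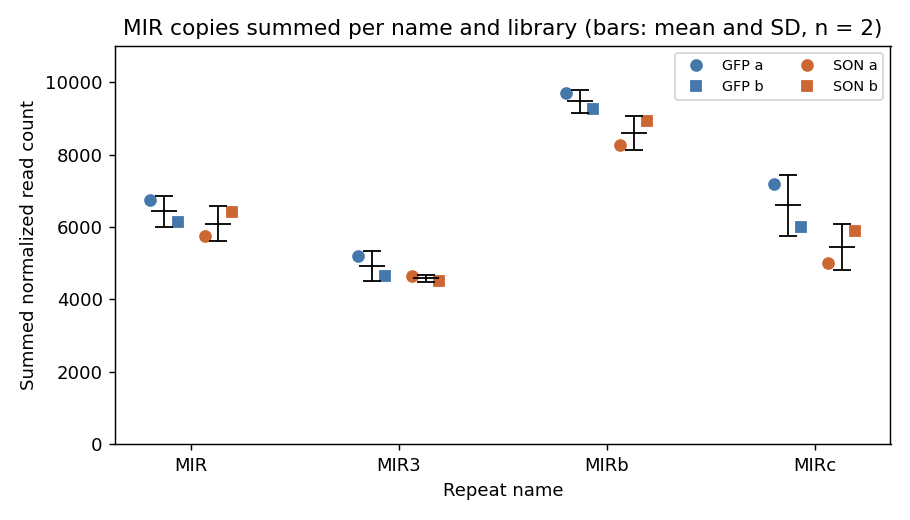
Summed normalized read count of the copies of each MIR name (y axis, linear from 0) in every library, GFP control in blue and SON in orange, with the mean and SD of each group of 2. MIRb carried the most reads and MIRc showed the widest gap, from a mean of 6597 to 5450, with an SD of 844 in the GFP control.

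The share of MIR in all repeat reads was lower in both SON libraries, and this came with more ribosomal RNA reads in the same table. MIR copies took 4.05% and 3.91% of the repeat reads in GFP control a and b, and 3.08% and 3.73% in SON a and b. The exact (Clopper-Pearson) 95% intervals, which cover counting error only, ran from 4.01% to 4.10%, 3.87% to 3.94%, 3.03% to 3.12% and 3.67% to 3.78%. SON a stood lowest, and the groups did not overlap. The difference of -0.58 percentage points had p = 0.333 in a two-sided exact permutation test, the smallest p that 2 against 2 libraries can give. It was -0.25 points without SON a and -0.90 without SON b.

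Copies with the ribosomal RNA names LSU-rRNA_Hsa and SSU-rRNA_Hsa took 1.97% and 3.33% of the repeat reads in the GFP control, against 22.3% and 7.84% in SON. SON a was highest. With these names left out of the total, an alternative chosen after seeing the data, MIR took 4.14% and 4.04% in the GFP control, against 3.96% and 4.05% in SON. The groups then overlapped, and the difference was -0.09 percentage points (exact permutation p = 0.667). The share without ribosomal RNA was 0.97% and 0.95% against 0.96% and 1.01% for the name MIR. For MIR3 it was 0.75% and 0.72% against 0.78% and 0.71%, and for MIRb 1.39% and 1.44% against 1.38% and 1.40%. MIRc had 1.03% and 0.93% in the GFP control, against 0.84% and 0.93% in SON. The difference was -0.10 percentage points (exact permutation p = 0.333). In the share of all repeat reads, ribosomal RNA included, the MIRc difference was -0.20 points (exact permutation p = 0.333). Without MIRc_15412 that difference was -0.08 points (exact permutation p = 0.667).

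**Figure D2:**
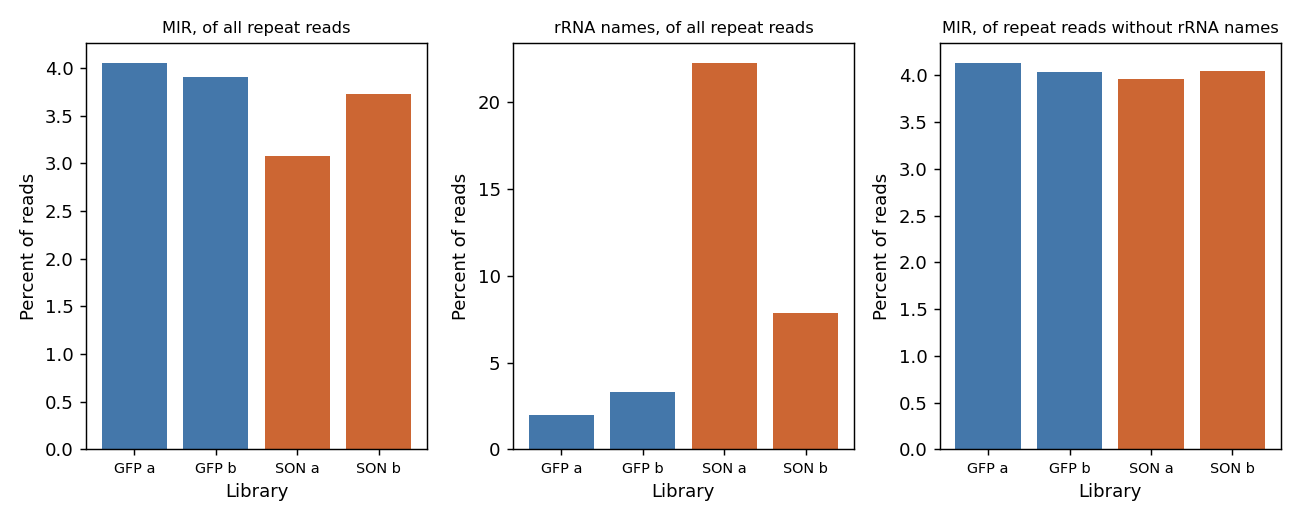
Share of repeat reads (percent, linear axes from 0) in each library for MIR copies, for copies with ribosomal RNA names, and for MIR copies after the ribosomal RNA names are left out of the total. MIR lay between 3.08% and 4.05% in the first panel and between 3.96% and 4.14% in the third.

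L2, the LINE family with the related tail, gave a ratio to MIR that varied little between libraries. For each normalized count in L2 copies (800 copies) there were 1.57 and 1.58 counts in MIR copies in the GFP control, against 1.52 and 1.54 in SON. The ratio was lower in both SON libraries, with a difference of -0.04 in the ratio itself (exact permutation p = 0.333, the smallest possible). Without the copy with the most reads in each family the ratios were 1.71 and 1.63 against 1.63 and 1.62, and the groups overlapped (exact permutation p = 0.667). Against the 691 copies whose name starts with MLT, the ratio was 2.22 and 2.17 in the GFP control, against 2.10 and 2.14 in SON (exact permutation p = 0.333). These names hold the ancient MLT LTR retrotransposons (524 copies) and 19 names that start with MLTR (167 copies). With the MLTR names left out, an alternative chosen after seeing the data, the ratio was 2.98 and 2.94 against 2.80 and 2.96, with overlapping groups (exact permutation p = 0.667). With the MLTR names kept and the copy with the most reads left out of each family, the log2 difference of the MIR to MLT ratio turned from -0.05 to 0.010. Over 16 shares, ratios and sums tested in this way, the lowest Benjamini-Hochberg adjusted exact permutation p was 0.533.

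Within the reads of all MIR copies the name MIR took a larger part and MIRc a smaller part in SON. The name MIR took 23.4% and 23.6% of them in GFP control a and b, and 24.3% and 24.96% in SON a and b. MIRc took 24.9% and 23.1%, against 21.2% and 22.9%. The groups did not overlap for either (exact permutation p = 0.333 each). The separation rested on 1 copy: without MIRc_15412 the name MIR took 24.7% and 24.4% against 24.7% and 25.4%, and MIRc 20.6% and 20.2% against 19.9% and 21.4%, and both overlapped. With all copies, for MIRb (33.6% and 35.6% against 34.9% and 34.6%) and MIR3 (18.1% and 17.8% against 19.6% and 17.5%) the groups did overlap. Without MIRc_15412 those of MIRb no longer did, at 35.6% and 36.9% against 35.4% and 35.3% (exact permutation p = 0.333).

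Most MIR copies were read thinly. A listed copy had at least 21 reads over the 4 libraries, and MIR copies had a median of 38 reads and a maximum of 4031. Of the 1400, 472 had at least 50 reads and 94 at least 200. The 10 copies with the most reads held 16.2% of the 113118 MIR reads, and 125 copies were enough to hold 50% of them. The running numbers rose down the table within every one of the 1040 names, and reached 42097 for MIRb, 38919 for MIR, 23178 for MIRc and 15928 for MIR3. If they count the annotated copies of a name, at most 1.16%, 1.03%, 1.27% and 1.36% of those copies are in the table.

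Single copies scattered on both sides of the GFP control, with a median close to 0. Over all 1400 the median log2 difference of the group means was -0.02 (quartiles -0.53 and 0.42), beside -0.09 over all 36284 repeat copies. Over the 692 MIR copies with enough reads to be tested it was -0.02, which became 0.072 with TMM factors. All tested copies had -0.07 on the deposited scale and 0.02 with TMM. The median size of a difference, without sign, was 0.50 between the group means. Between the pair of GFP control libraries it was 0.47, and between the pair of SON libraries 0.72. Means of 2 libraries vary less than single libraries, so these values are not like for like.

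Limma called 0 of the 692 MIR copies, as it called 0% of all 17390 repeat copies tested, and the lowest adjusted p of a MIR copy was 0.165. At an unadjusted limma p under 0.05, 20 MIR copies (2.89%) were higher in SON and 43 (6.21%) lower, near the background of 3.15% and 6.38% over all repeat copies. The 43 lower copies were 13 of 196 tested for MIR (6.63%), 7 of 105 for MIR3 (6.67%), 12 of 254 for MIRb (4.72%) and 11 of 137 for MIRc (8.03%). The 20 higher ones were 5 (2.55%), 4 (3.81%), 8 (3.15%) and 3 (2.19%) in the same order. Without overlap between the groups, 321 MIR copies (22.9%) lay lower in SON and 226 (16.1%) higher, where all repeat copies gave 24.2% and 15.5%. With TMM factors there were 294 MIR copies lower (21%) and 277 higher (19.8%), beside 21.4% and 18.3% of all repeat copies. By name, on the deposited scale, the lower share was 20% of MIR, 28.1% of MIR3, 25% of MIRb and 19.7% of MIRc. The higher share was 14%, 18.9%, 17.2% and 15.3%, so MIR3 and MIRb had the larger shares in both directions.

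Deeper copies were lower in SON more often, in MIR as in the whole table. Depth was counted in reads over all 4 libraries, and the GFP control libraries held most of them. A copy lower in SON therefore reaches a read threshold more easily than a copy higher in SON. The same holds for the 21 reads that every listed copy had at least, and so for the shares at any depth. The part of these read minimums in the shares was not tested. Among the 94 MIR copies with at least 200 reads, 34 (36.2%) lay below the GFP control without overlap and 13 (13.8%) above, beside 34.5% and 13.4% of all repeat copies of that depth. At 50 reads or more the MIR shares were 25.6% and 13.1%, beside 27.5% and 14.8%. Of the 34 deep lower copies, 32 had a higher value in GFP control a than in b, whereas 67.0% of all 94 deep MIR copies did. Of all repeat copies of that depth, 76.1% of the lower ones and 59.9% of all had this order. GFP control a thus moved with the lower copies, and its part in them was not tested.

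**Figure D3:**
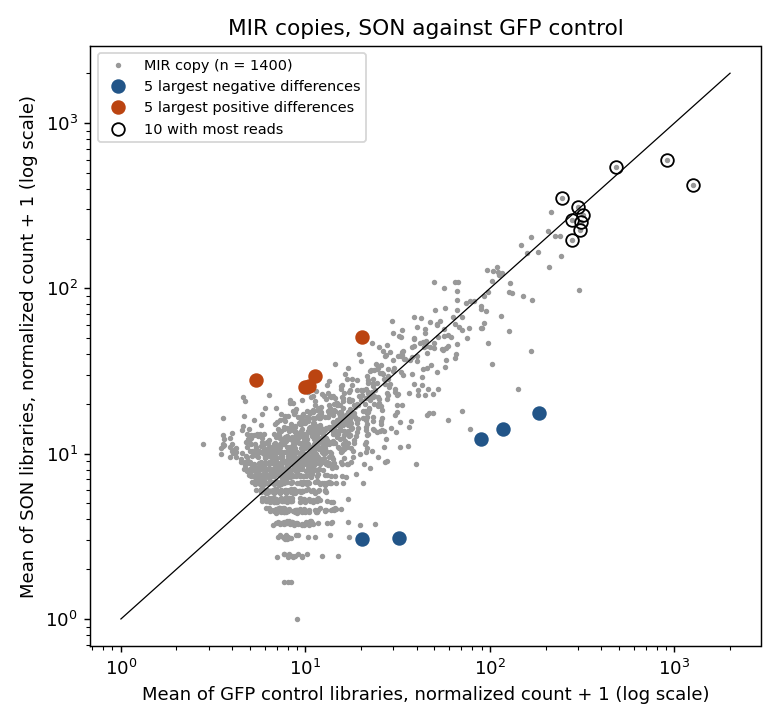
Each point is 1 MIR copy, with the mean normalized count plus 1 of the GFP control libraries on the x axis and of the SON libraries on the y axis, both on log scales, and the line of equality. Copies scatter around the line, MIRc_15412 lies below it at the right (1252 against 420), filled points mark the copies with the largest differences in each direction, and open circles the 10 with the most reads.

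Of the 10 copies with the most reads, 3 were lower in SON without overlap, 1 was higher and 6 overlapped. MIRc_15412, the deepest MIR copy with 4031 reads, had 1584 and 920 normalized counts in GFP control a and b and 366 and 473 in SON a and b. Both SON values were below both GFP control values, and the log2 difference was -1.53 ± 0.33 (limma adjusted p = 0.196). MIRb_17695 had 595 and 1229 in the GFP control, against 486 and 707 in SON, with overlapping groups. MIR3_8786 had libraries close together within each group, with 485 and 477 in the GFP control, against 552 and 531 in SON. Its groups did not overlap, and its log2 difference was 0.17 ± 0.26 (limma adjusted p = 0.864).

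The remaining 7 had log2 differences from -0.55 to 0.54. MIR_34074 had 289 and 265 in the GFP control, against 204 and 184 in SON, and MIRb_37525 had 323 and 315 against 296 and 257. Both were lower in SON without overlap (limma adjusted p = 0.584 and 0.841). MIR_27804 lay between 255 and 290 in all 4 libraries, a range that held both groups. MIR3_14197 had 189 and 298 in the GFP control, against 279 and 428 in SON, and its groups overlapped.

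MIRc_4060 had 257 and 342 in the GFP control, against 207 and 410 in SON, MIR3_7055 had 349 and 273 against 334 and 166, and MIRc_12938 had 284 and 330 against 143 and 306. In these the SON libraries lay farther apart than the GFP control libraries did, and all their groups overlapped. Their direction rested on 1 library: without SON a the log2 difference was 0.47 for MIRc_4060 and 0.00045 for MIRc_12938, and without SON b it was 0.12 for MIR3_7055. For MIRc_4060 it was also 0.18 without GFP control b and 0.051 with TMM factors, and for MIR_27804 it turned from -0.09 to 0.0085 with RLE factors.

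Among copies with at least 50 reads and groups that did not overlap, the 5 largest negative differences corresponded to SON to GFP control ratios between 0.0685 and 0.133. The 50 reads were counted over all 4 libraries, and the GFP control libraries were the deeper ones. A copy could pass through its GFP control reads alone, so the sizes of falls and rises under this rule cannot be compared. MIR3_8198 had 33.5 and 29.2 in the GFP control, against 2.72 and 1.47 in SON, which is 89 reads against 3. The SON to GFP control ratio was 0.0685 (exact 95% counting interval 0.0139 to 0.207, limma adjusted p = 0.165). Such intervals pool the reads of the libraries of a group and cover counting error only. They leave out the spread between libraries and the choice of the most extreme copies. MIRb_17081 had 144 and 89.3 in the GFP control, against 4.08 and 22.1 in SON, a ratio of 0.114 (0.0664 to 0.182, limma adjusted p = 0.167). Its SON libraries rested on 3 and 15 reads, and both stood below the GFP control.

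MIRc_22102 had the lowest unadjusted p of any MIR copy. It measured 110 and 66.6 in the GFP control, against 13.6 and 8.82 in SON, a log2 difference of -2.86 ± 0.42 (limma adjusted p = 0.165). MIR3_4655 had 19.2 and 19.0 in the GFP control, 4.08 in SON a and 0 reads in SON b, where 0 reads allow up to 4.41 normalized counts. Its ratio was 0.111 (exact 95% counting interval 0.0222 to 0.341) on 55 reads against 3. MIRb_37752 had 325 in GFP control a and 41.7 in GFP control b, against 24.5 and 8.82 in SON. The GFP control libraries of that copy differed more from each other than GFP control b did from SON a.

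The 5 largest positive differences under the same rule corresponded to ratios between 2.45 and 6.43. MIRb_22605 had 5.86 and 2.98 in the GFP control, against 28.5 and 24.997 in SON, on 12 reads against 38. This is the largest of them, a ratio of 6.43 (exact 95% counting interval 3.29 to 13.5, limma adjusted p = 0.202). MIRc_21021, with 13.4 and 24.99 in the GFP control, against 40.8 and 58.8 in SON, had a ratio of 2.45 and a log2 difference of 1.37 ± 0.43 (limma adjusted p = 0.411). The other 3, MIRb_5929, MIRb_26757 and MIRc_6343, had log2 differences between 1.29 and 1.41 and limma adjusted p between 0.444 and 0.487. In each of these copies no GFP control library reached the lower SON library.

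DESeq2 on the recovered reads called 5 of the 692 MIR copies, all lower in SON, where it called 0.397% of all tested copies lower and 0.184% higher. It gave no adjusted p to 412 of the 692, among them MIR3_8198, MIR3_4655, MIRb_22605 and MIRb_5929, so these could not be called. The 5 called were MIRc_15412, MIRb_17081, MIRc_22102, MIRc_6899 and MIRb_13889, the last 2 of which are named because of this call. MIRc_6899 had 208 and 73.8 in the GFP control, against 14.9 and 32.3 in SON (DESeq2 adjusted p = 0.00984). MIRb_13889 had 97.0 and 56.5 against 19.0 and 7.35 (DESeq2 adjusted p = 0.0284). In each of the 5 GFP control a was above GFP control b. With edgeR 0 MIR copies were called (28 higher and 42 lower by unadjusted p, 4.05% and 6.07%, beside 4.37% and 5.83% of all repeat copies). Limma voom also called 0, and by its unadjusted p the balance was the opposite, with 33 higher (4.77%) and 20 lower (2.89%), beside 5.38% and 2.78% of all repeat copies.

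With 1 library left out, the lone library of its group is assumed to vary like the other group. Limma then called 1 MIR copy without GFP control a, 11 without GFP control b, 46 without SON a and 49 without SON b. These are 0.14%, 1.5%, 3.91% and 4.47% of the MIR copies tested, beside 0.0980%, 0.749%, 3.89% and 3.80% of all repeat copies. The 5 largest negative and 5 largest positive differences were chosen from these same 4 libraries. Leaving 1 library out is therefore no independent check of these copies. Their negative log2 differences then ranged from -4.49 to -1.43, and the positive ones from 0.865 to 2.80.

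**Figure D4:**
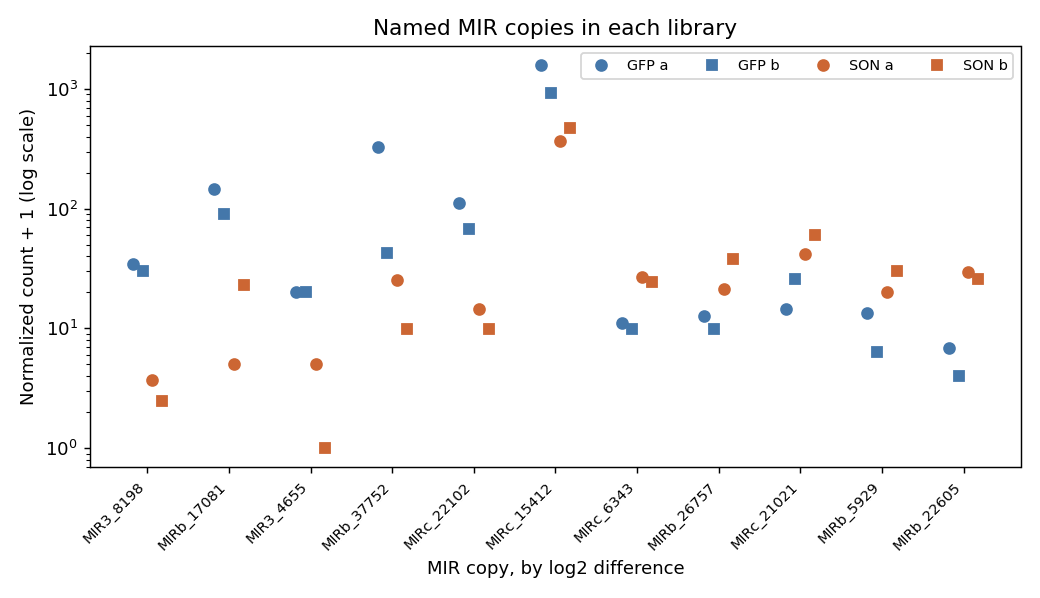
Normalized count plus 1 (log scale) in each of the 4 libraries for the 5 MIR copies with the largest negative and the 5 with the largest positive log2 difference, and for MIRc_15412, in order of the difference. GFP control is blue and SON orange. No groups overlap here, since all copies but MIRc_15412 were chosen so, and the libraries of one group lie far apart in MIRb_37752 and MIRb_17081.

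MIR copies varied together with the repeats listed next to them. In pairs of a MIR copy and a copy of another family, each with at least 50 reads, Pearson's r of the 2 log2 differences was 0.55 for rows directly beside each other (364 pairs, Spearman's rho 0.44). It was 0.43 at 2 rows, 0.28 at 5, 0.19 at 10, -0.11 at 20, 0.12 at 50 and -0.0037 at 100. All pairs of repeat copies gave 0.56, 0.46, 0.28, 0.16, 0.02, 0.02 and -0.0060 at the same distances. These correlations run across copies in the same 4 libraries, copies are not independent replicates, and the labels do not say whether a read over 2 neighbouring copies was counted for both.

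Beside the 121 MIR copies with at least 50 reads and lower SON values, 97 of 217 neighbouring rows of other families (44.7%) were also lower without overlap, and 14 (6.45%) were higher. Beside the 62 copies with higher SON values, 27 of 111 neighbours (24.3%) were higher and 13 (11.7%) lower. Beside the 289 copies whose groups overlapped, 16.7% of the neighbours were lower and 16.3% higher, and beside all 1400 MIR copies these shares were 23.9% and 15.6%. No read minimum was set for the neighbouring rows.

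MIRc_15412 follows a GA-rich row, GA-rich_16434, that had 1002 and 463 in the GFP control, against 276 and 319 in SON, with the same order of the GFP control libraries. MIR3_8198 precedes MER2_4400, a DNA transposon copy, with 92.0 and 47.6 in the GFP control, against 9.51 and 7.35 in SON. MIRb_17081 follows RLTR31D_MM_3166, an LTR copy with 34.3 and 23.2 against 1.36 and 2.94. Other neighbours did not share the difference of their MIR copy. MTD_13203, beside MIR3_4655, had a log2 difference of 0.05 and L1_Mus1_24149, beside MIRb_37752, had 0.40 on 37 reads, both with overlapping groups. The neighbours on the other side of these copies were lower in SON without overlap. They were MIR3_4656 beside MIR3_4655 (log2 difference -1.29, 32 reads) and MLT1D_7347 beside MIRb_37752 (-3.71, 40 reads). Of the 9 neighbours from other families beside the 5 largest negative differences, 7 were lower without overlap, 0 higher and 2 overlapping. Beside the 5 largest positive ones, 2 of 9 were higher, 0 lower and 7 overlapping, and beside the 10 copies with the most reads 5 of 19 were lower, 4 higher and 10 overlapping. MIR3_8786, which differed little between groups, had thinly read neighbours, with 22 and 35 reads. Neighbours counted above include rows as thin, such as B3_58696 with 27 reads beside MIRb_17081.

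MIR copies that lie directly beside each other had log2 differences of the same sign in 18 of 30 pairs (60%) with at least 50 reads in each copy, beside 68.9% of all 5827 adjacent pairs of repeat copies. MIR_2281 and MIR3_846 were the pair in which both were lower without overlap. MIR_2281 had 171 and 81.5 in the GFP control, against 44.8 and 63.2 in SON, and MIR3_846 had 406 and 201 against 91.0 and 103. Both were higher without overlap in 2 pairs, MIR_29055 (log2 difference 0.29) with MIRb_31477 (0.41) and MIRb_38039 (0.63) with MIRb_38040 (0.26). In 1 pair the directions were opposite without overlap, with MIR3_6747 at -0.52 and MIRb_18166 at 0.63 on the log2 scale. These pairs are named after their values were seen.

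**Figure D5:**
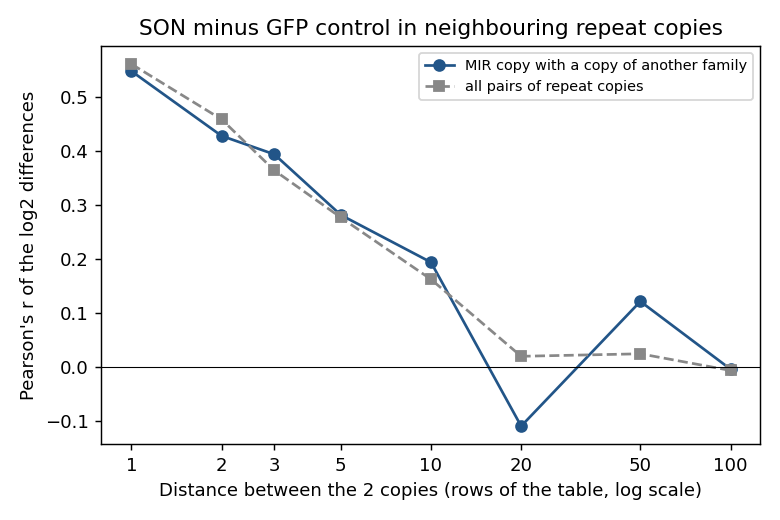
Pearson's r between the log2 differences (SON minus GFP control) of 2 repeat copies with at least 50 reads each, by their distance in rows of the table (log scale), for MIR copies paired with other families (blue) and for all pairs (grey). Both curves decline from about 0.55 for adjacent rows to below 0.2 at 10 rows, and the MIR curve scatters between -0.11 and 0.12 beyond.

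Genes of the RNA polymerase III machinery, a list of subunits of the enzyme and of factors associated with it, had differences in both directions. All 26 genes of the list were tested, 12 had positive and 14 negative log2 differences, and their median was -0.01, beside -0.0063 over all genes. Limma called 0 of them, beside 0.0523% of all 15283 genes tested. By its unadjusted p, under 0.05, 1 of the 26 was higher (5.99% of all genes were) and 1 lower (6.57% of all genes were). Gtf3c1, the largest subunit of the factor TFIIIC that binds the internal promoter, had 3249 and 3589 in GFP control I and II and 4500 and 6221 in SON I and II. Both SON libraries were above the GFP control, with a log2 difference of 0.63 ± 0.20 (limma adjusted p = 0.332). Gtf3c5, another subunit of TFIIIC, had 1242 and 1102 in the GFP control libraries and 836 and 896 in the SON libraries. Here both SON values were below the GFP control, with a log2 difference of -0.43 ± 0.15 (limma adjusted p = 0.360).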

How the data were processed

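RNA-seq libraries, 2 of GFP control and 2 of SON, came from a TruSeq mRNA kit, per the labels' protocols. The deposited tables hold a signal per repeat copy or gene: the authors divided read counts by 1 size factor per library (1.20 and 1.68 in the GFP control, 0.736 and 0.680 in SON for repeats), and 100% of values were whole multiples of 1 read within 0.01 reads. The gene table's deposited DESeq2 columns (log2 fold change, score, p-value) were not used here. The submitters' processing notes name TopHat2 2.0.11, HTSeq 0.5.3p3, STAR 2.4.0j and featureCounts on GRCm38, without saying which made which table. How reads with several hits were handled is not stated there. The repeat columns are named by group and letter (a, b) and the samples by numeral (I, II), and columns were given to samples by name only, so repeat columns were used by group. Their size factors lie close to those of the gene table (1.20 and 1.68 in the control libraries, 0.733 and 0.681 in the SON libraries), which was not used to join them. The libraries of a group were no copies of one another (chi-square per degree of freedom 3.23 and 7.94).

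Limma 3.58.1 (R 4.3.3) was fitted to log2 of the value plus 1, with a trend, two-sided, over all copies, names or genes that passed filterByExpr of edgeR 4.0.16, and p was Benjamini-Hochberg adjusted, with a threshold of 0.05. Log2 differences are on that scale and understate changes of low copies. DESeq2 1.42.0, edgeR and limma voom were run on the recovered reads. Functions were tested on simulated data. Named copies are the 10 with the most reads, the 5 largest differences each way among copies with at least 50 reads and separated groups, and any called copy. Members and lists were chosen with earlier results of these data known.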

Additional observations from a re-analysis of the deposited data

How the results depend on the processing

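Scaling decided the sign of the smallest differences. With TMM factors, RLE factors, edgeR, DESeq2 and limma voom the summed log2 difference of the name MIR was 0.051, 0.036, 0.051, 0.036 and 0.052, against -0.08 as deposited. That of MIR3 was 0.029, 0.014, 0.031, 0.016 and 0.032, against -0.10. With no adjusted p under 0.05 for any of the 4 MIR names under these settings, MIRb was -0.011, -0.026, -0.012, -0.027 and -0.015 (against -0.14), and MIRc lay between -0.16 and -0.13 (against -0.27). With 1 library left out, MIR ranged from -0.16 to -0.00025, MIR3 from -0.19 to -0.018, MIRb from -0.20 to -0.087 and MIRc from -0.41 to -0.14. The median over MIR copies became 0.072 with TMM. Without ribosomal RNA names the share of the name MIR differed by 0.027 and that of MIR3 by 0.0096 percentage points. The share of all MIR copies together differed by -0.09 points. Without the top copies the log2 MIR to MLT ratio differed by 0.010. For the copy MIRc_4060 the log2 difference was 0.051 with TMM, 0.071 with RLE, 0.092 with edgeR, 0.11 with DESeq2 and 0.049 with voom, and for MIR_27804 it was 0.0085 with RLE and 0.0044 with DESeq2. The causes were not tested. DESeq2 called 5 MIR copies, and leaving out 1 library gave between 1 and 49. With all 4 libraries, 321 MIR copies of any depth were separated and lower (22.9%, beside 24.2% of all repeat copies). Separated and higher were 226 (16.1%, beside 15.5%). At 50 reads or more, 121 MIR copies were separated and lower (25.6%, beside 27.5%) and 62 higher (13.1%, beside 14.8%). With 1 library fewer, separated MIR copies of any depth numbered between 426 and 605 lower and between 379 and 555 higher, by construction. Shares over all repeat copies with 1 library fewer were not counted, so these numbers have no background beside them. MIRc_4060 ranged from -0.52 to 0.47, MIR3_7055 from -0.89 to 0.12 and MIRc_12938 from -1.09 to 0.00045. Columns of the repeat table share letters but no source says that a letter pairs them (correlation of a-lettered deviations 0.099). A replicate block by letter, chosen after seeing the data, called 9 of 692 MIR copies, all lower, and 36 higher and 121 lower of 17390 copies; it called 0 MIR names and left their differences as they were. In the gene table, whose numerals are I and II, a replicate block called 0 RNA polymerase III genes, as without it, and 4 higher and 7 lower of all genes against 5 and 3 (correlation of same-numbered deviations 0.22). With 2 libraries a group the exact permutation test cannot pass 0.05, and copies near 38 reads cannot show small differences.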
